A study of Mus musculus with 113 samples.

Results

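Small nucleolar RNAs (snoRNAs) are short non-coding RNAs that guide chemical changes on ribosomal and spliceosomal RNA. Most of them are cut from the introns of host genes, many of which encode ribosomal or nucleolar proteins, and they work in complexes with a fixed set of proteins. H/ACA box snoRNAs (symbols starting with *Snora*) guide pseudouridylation with the synthase dyskerin, and C/D box snoRNAs (symbols starting with *Snord*) guide ribose methylation with the methyltransferase fibrillarin. The nucleolus of the mouse embryo matures during the first cleavages, when ribosomal RNA synthesis starts.

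All genes whose symbol starts with *Snora* or *Snord* were taken from the FPKM files of mouse embryos, which gave 105 of 24006 genes (36 *Snora* and 69 *Snord*) in 92 RNA-seq libraries. The genes were chosen by symbol, and the family was picked out for its zeros and high single values in these files, while *Snora78* in the 2C *Nr5a2* knockdown was selected on its FPKM in that comparison. FPKM count the fragments of a transcript relative to its length and to the library's mapped total. The embryos came from superovulated C57BL/6 females mated with PWK/PhJ males (C57BL/6J in the labels' growth protocol, C57BL/6N in the study's methods), all with the genotype label wild type, and were collected at the 2-cell (2C), 4-cell (4C) or 8-cell (8C) stage. The knockdown (KD) groups were pools of several embryos injected with siRNA, with 2 libraries in each group. At 4C and 8C, 4KD embryos received siRNAs against the nuclear receptor genes *Nr5a2*, *Rarg*, *Nr1h3* and *Nr2c2* (5 µM each), and their controls received 20 µM of a negative control siRNA (NC). At 8C, 3KD embryos lacked the siRNAs against 1 of these 4 genes (NC 15 µM), and single KD embryos received those against 1 gene at 5 µM (NC 5 µM). At 2C, *Nr5a2* KD embryos received 20 µM of *Nr5a2* siRNA and NC embryos 20 µM of NC siRNA. These concentrations are those of the labels. The study's methods describe several siRNAs for each gene and give a single lower amount for each siRNA of a KD group, without setting the 2C knockdown apart. Whether an amount in the labels is that of 1 siRNA or of all siRNAs against a gene was not settled here. The single-embryo libraries came from embryos injected with base editor mRNA (BE, 100 ng/µl), with an sgRNA that directs the editor to introduce a stop codon into *Nr5a2*, or with both, in 8, 8 and 14 libraries at each of 2C and 8C. The study calls the libraries of a siRNA group biological replicates, while the labels give them only a number and do not say whether the embryos were collected separately.

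The FPKM of a library summed to 83392 to 556462 (median 397325), and 5472 to 11921 genes reached an FPKM of 1. The files used hold no read counts, so sequencing depth is not known in reads, and a relative depth taken from the spacing of low FPKM ranged from 0.363 to 1.52 (1 in the median library). One library stood apart, 8C BE + sgRNA replicate 8, with the lowest FPKM sum. The column names of the single-embryo libraries with an editor carry eBE or BE4, which the labels do not explain. The study's methods name an eBE construct as the editor and do not mention BE4. Whether the libraries of the 2 names differ in the editor injected was not settled here. The names of 15 sgRNA libraries carry neither, and these were put into an eBE or a BE4 set by their library number, which is an assumption. In 3 libraries the column name gives the 4-cell stage (replicate 8 of 2C sgRNA, replicates 13 and 14 of 8C BE + sgRNA). The siRNAs against each gene lowered their target in the single KD and 2C KD pools. In the 4KD and 3KD pools the targets also lay below both NC libraries, except *Rarg* in the 3KD experiment. There *Rarg* was at 2.18 and 17.6 FPKM in NC and at 1.61 to 3.60 in the pools with its siRNA, so these overlapped. *Nr5a2* was at 2.72 to 6.13 FPKM in the 2C KD pools against 19.4 to 24.3 in NC, and at 9.65 to 12.8 against 48.8 to 50.2 at 8C. The summed FPKM of 4 genes known from the 2-cell embryo (*Zscan4c*, *Zscan4d*, *Zscan4f*, *Tdpoz4*) had a median of 110 at 2C and 5.73 at 8C, and that of 6 genes known from later stages (*Pou5f1*, *Gata3*, *Cdx2*, *Klf5*, *Tead4*, *Cdh1*) had a median of 82.0 at 2C and 378 at 8C. Markers of sperm and of oviduct epithelium had medians of at most 3.76 FPKM at any stage. Markers of cumulus and granulosa cells summed to a median of 25.6 at 2C and 13.4 at 8C, of which *Amhr2* alone was above 0 in all 92 libraries, whereas *Has2*, *Ptx3*, *Tnfaip6*, *Inha* and *Fshr* had a median of 0.

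The sequences below show what the genes of both classes look like, with the longest placed C/D member that was listed at 0 beside members that were not. They were read from the mm9 (NCBIM37) genome on the strand of the gene, at the ends given by GENCODE vM1. Capitals mark the terminal ACA in the H/ACA genes, and the C box core TGATGA and each D box core CTGA in the C/D genes.
*Snora78*, chr17:24856621-24856748, minus strand, 128 bases: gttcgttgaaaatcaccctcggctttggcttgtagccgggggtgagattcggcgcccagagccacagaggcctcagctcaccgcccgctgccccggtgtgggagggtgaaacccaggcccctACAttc
*Snora23*, chr7:117189878-117190061, plus strand, 184 bases: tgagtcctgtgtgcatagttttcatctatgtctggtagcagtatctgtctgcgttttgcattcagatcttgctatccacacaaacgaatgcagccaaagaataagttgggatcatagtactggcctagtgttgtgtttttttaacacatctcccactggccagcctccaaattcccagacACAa
*Snord17*, chr2:144091715-144091952, minus strand, 238 bases: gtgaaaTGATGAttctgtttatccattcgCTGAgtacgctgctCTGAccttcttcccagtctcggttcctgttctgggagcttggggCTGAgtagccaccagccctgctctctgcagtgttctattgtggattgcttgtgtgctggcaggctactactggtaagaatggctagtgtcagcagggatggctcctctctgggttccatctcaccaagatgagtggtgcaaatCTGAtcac
*Snord15a*, chr7:106631295-106631442, minus strand, 148 bases: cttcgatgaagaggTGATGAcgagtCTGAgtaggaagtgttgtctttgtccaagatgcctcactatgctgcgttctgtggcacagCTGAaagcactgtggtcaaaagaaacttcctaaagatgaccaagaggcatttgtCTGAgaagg

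*Snora78*, *Snora23* and *Snord17* were above 0 in some libraries, and *Snord15a* in none. Both classes differed in these letters. An ACA with at most 3 bases after it ended 28 of 31 H/ACA genes (90.3%) and 4 of 56 C/D genes (7.14%). TGATGA occurred in 36 of 56 C/D genes (64.3%) and in 0 of 31 H/ACA genes, and CTGA in 56 of 56 and in 15 of 31 (48.4%). The search covered the strand of the gene, and the members with a place in the annotation outside chromosome 18. A match of these letters is a description of the sequence and not evidence of a guide function.

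Of the 105 snoRNA genes, 100 were listed at 0 in all 92 libraries (32 of 36 *Snora* and 68 of 69 *Snord*). The other 5 were *Snora78*, above 0 in 41 libraries, *Snord17* in 40, *Snora81* in 32, *Snora23* in 25 and *Snora74a* in 16. Together they made 154 of 9660 values above 0 (1.59%). By this measure 4.76% of the snoRNA genes were above 0 somewhere, against 85.8% of the other 23901 genes. A value of 0 in these files is not a measurement of absence. The study's methods give Smart-seq2 for all RNA-seq libraries, and its part in these values, at 0 or above, was not tested. *Rps12* and *Rpl12*, which encode proteins of the ribosome and host *Snord100* and *Snora33*, and *Snora65*, were themselves above 0 in 3 of 92 libraries. No lower limit of detection can be given without counts.

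Where a snoRNA gene was above 0, it was high at once. The 154 values lay between 12.5 and 5667 FPKM with a median of 256, whereas the nonzero values of the other genes had a median of 3.75, and 28.2% of those reached 12.5. *Snora78*, an H/ACA snoRNA, was either at 0 or between 755 and 5667 FPKM (median of its nonzero values 1674), with the highest value in 8C BE + sgRNA replicate 12. *Snora81*, an H/ACA snoRNA, was at 0 or between 301 and 2527 (median 536). *Snora23*, an H/ACA snoRNA, was at 0 or between 64.6 and 419 (median 144). The lowest levels belonged to *Snora74a*, an H/ACA snoRNA, at 32.9 to 154 (median 51.5), and to *Snord17*, a long C/D snoRNA, at 12.5 to 260 (median 28.3). No value of a snoRNA gene fell between 0 and 12.5 FPKM in any library.

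**Figure D1:**
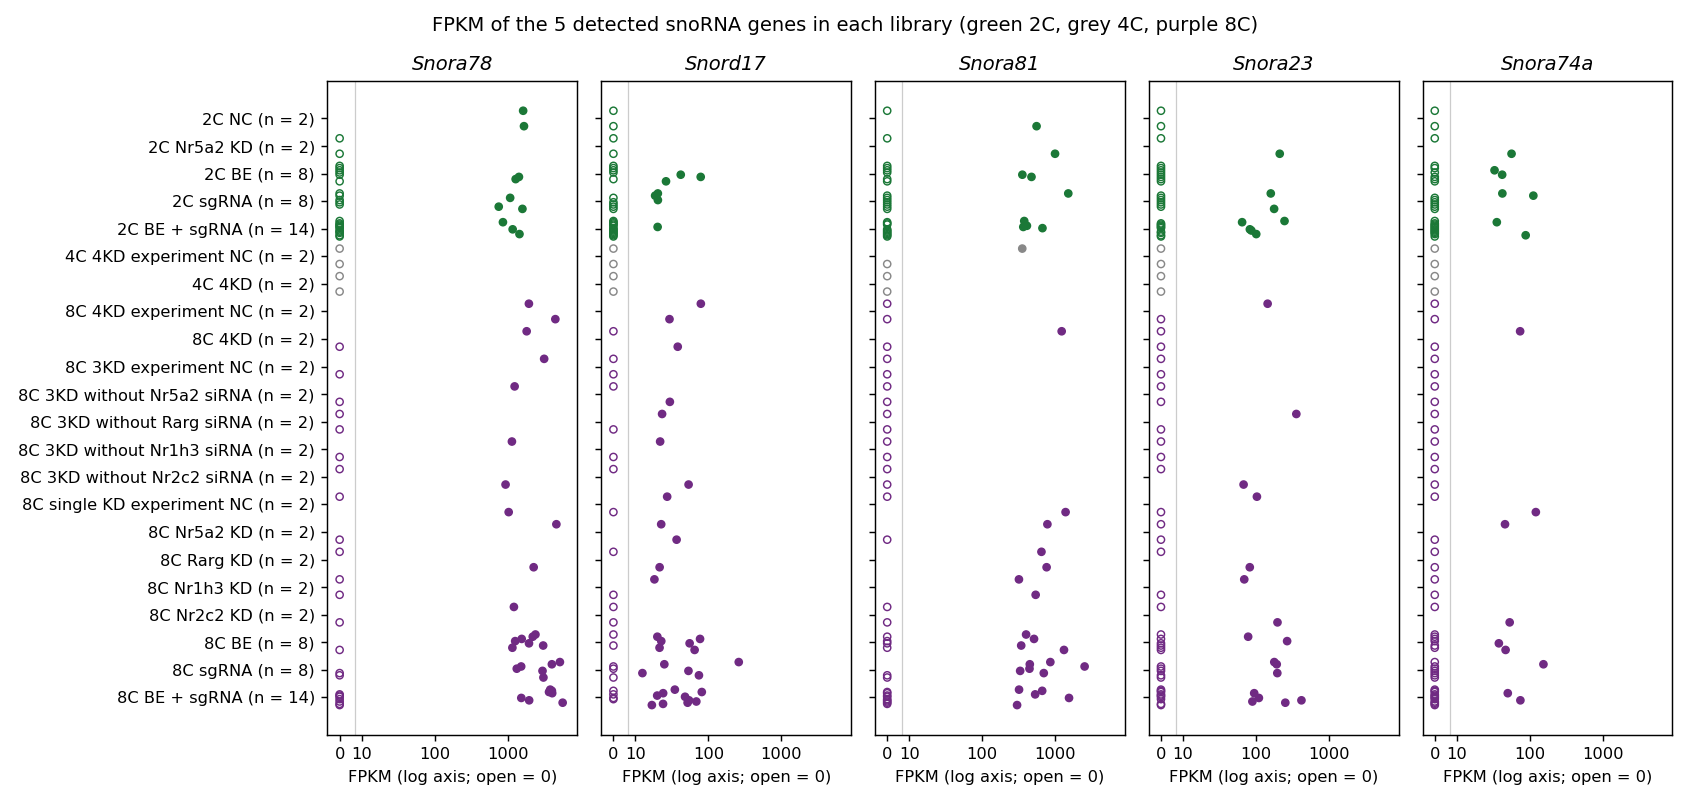
FPKM of the 5 snoRNA genes that were above 0 in at least 1 library. Each panel is 1 gene, each row a group of libraries (number of libraries in brackets), each point a library (green 2C, grey 4C, purple 8C), with filled points on a log axis and open points at 0 set apart on the left of the grey line. *Snora78* lies at 0 or from 755 to 5667 with nothing between, and in the 4C rows the only filled point is *Snora81* at 354.

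The jump from 0 was far larger than the spacing of low values in long genes. In 4635 genes of 1500 to 5000 bases the low values, scaled to the median depth, started at 0.348 FPKM for a transcript of 1 kb (10th percentile). If that amount were divided by length alone, it would be worth 2.72 FPKM in *Snora78*, yet the smallest nonzero value of *Snora78* at that depth was 618, which is 227 times as much. The same ratio was 127 for *Snora81*, 24.5 for *Snora23*, 14.3 for *Snora74a* and 10.2 for *Snord17*, so it was lower in the longer genes. It was 4.48 for *Scarna13* (275 bases), 7.50 for *Scarna6* (265 bases), which are guide RNAs of the Cajal body, and 33.1 for *Snhg9* (183 bases). At equal depth, 25 of 40 nonzero values of *Snord17* (62.5%), 17 of 32 of *Snora81* and 14 of 41 of *Snora78* lay within 2-fold of the gene's smallest nonzero value. As background, Cufflinks divides by a length that allows for the size of the sequenced fragments, which for a transcript near or under that size becomes very small. The part of this step in the values was not tested, and an FPKM of these genes is given here as a value of the files and not as a number of molecules.

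Length went with detection. The 83 members at 0 that the annotation places were 64 to 149 bases long (median 90), and the members above 0 were 128 (*Snora78*), 178 (*Snora81*), 184 (*Snora23*), 196 (*Snora74a*) and 238 bases (*Snord17*). All 4 placed members longer than 149 bases were thus above 0 in some library. *Snora78* was the exception to the order by length, since 29 members that were at least as long as it, up to 149 bases, were listed at 0 throughout. Genes of other kinds were counted in the same way, without the snoRNA genes. Of 448 under 150 bases, 3 (0.67%) were above 0 in any library, compared with 2 of 5 genes of 150 to 200 bases (40%), 15 of 37 genes of 200 to 300 bases (40.5%) and 94.7% of the 17406 genes of 1000 bases or more. All 1067 microRNA genes (symbols starting with *Mir*) and 3 *Rnu* genes were listed at 0, and 2 of 9 *Scarna* genes were not. Other non-coding RNAs were above 0 to varying degrees: *Rpph1*, the RNA of ribonuclease P, in 86 libraries, *Terc*, the H/ACA-type RNA of telomerase, in 62, *Vaultrc5* in 10 and *Rmrp* in 5. The relation is a description across genes, which share their libraries.

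**Figure D2:**
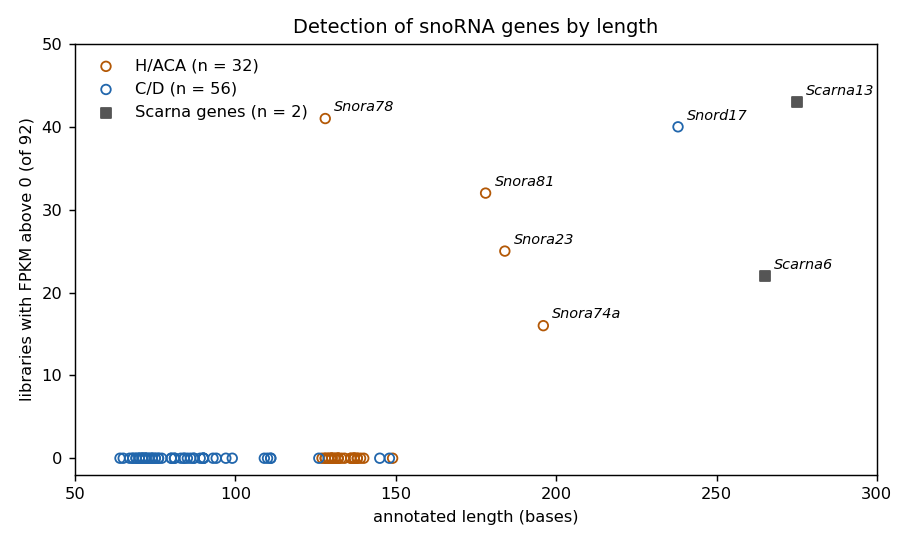
Number of the 92 libraries with an FPKM above 0 (vertical axis) against annotated length in bases (horizontal axis) for 88 placed snoRNA genes (orange H/ACA, blue C/D) and 2 *Scarna* genes (grey squares). The members at 0 fill the row at the bottom up to 149 bases, and of the genes at 128 to 149 bases only *Snora78* (41 libraries) is above it.

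Most hosts of the members at 0 were themselves above 0. A host gene on the same strand was annotated for 75 of the 83 placed members at 0, with 53 distinct hosts, of which 20 encode ribosomal proteins. Of these hosts 39 were above 0 in all 92 libraries, 42 had a median of at least 10 FPKM and 17 of at least 100. *Rps12*, *Rpl12* and *Htr2c*, the host of *Snora35*, had a median of 0. *Rpl32*, host of *Snora7a*, had a median of 2097 FPKM, *Rpl4*, host of *Snord16a*, one of 1045, and *Rpl39*, host of *Snora69*, 912. *Rpl13a*, with *Snord32a*, *Snord33*, *Snord34* and *Snord35a* in it, had a median of 373, and *Snhg12*, a non-coding host of *Snora16a*, *Snora44*, *Snora61* and *Snord99*, one of 27.2. By contrast, the hosts of the members above 0 had medians of 159 (*Snx5*, host of *Snord17*, a sorting nexin), 82.3 (*Snhg9*, host of *Snora78*), 71.8 (*Eif4a2*, host of *Snora81*, a translation initiation helicase), 60.3 (*Ipo7*, host of *Snora23*, a nuclear import receptor) and 7.17 (*Snhg4*, host of *Snora74a*). Medians above that of *Snx5* were reached by 12 hosts of members at 0. The 17 members without a place in the annotation, such as *Snora15*, *Snora19* and *Snord116*, were all at 0.

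Position within the host separates 1 member from the other 4. *Snora81* (chr16:23110829-23111006, plus strand) lies whole, over 178 bases, within an exon of an annotated *Eif4a2* transcript on the same strand. Reads that fall there cannot be told apart from *Eif4a2* by their position. The other detected genes lie in introns. In all, 31 members overlapped an exon of some transcript of their host, and 30 of these were at 0, among them *Snord2*, also in *Eif4a2*, and *Snora64*, in *Rps2*. *Snora78* lies in an intron of *Snhg9* (chr17:24856476-24856910) and opposite to *Rps2*. No annotated exon of *Rps2* overlaps *Snora78*, so reads of spliced *Rps2* RNA do not fall there by the annotation. Reads of unspliced *Rps2* RNA could, and a protocol that keeps no strand cannot tell these apart from reads of *Snora78*.

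*Snora78* was never above 0 without its host *Snhg9* at 2C, whereas at 8C it was in 18 libraries. In the 34 libraries of 2C, both were above 0 in 10, *Snhg9* alone in 16, *Snora78* alone in 0 and neither in 8. In the 54 libraries of 8C, both were above 0 in 13, *Snhg9* alone in 12, *Snora78* alone in 18 and neither in 11. Where *Snora78* was above 0 at 2C, *Snhg9* lay between 174 and 883 FPKM (median 443), and where it was at 0, between 0 and 1008 (median 83.6). At 8C, *Snhg9* had a median of 0 (0 to 571) beside *Snora78* and of 72.5 (0 to 895) without it. Among the single embryos alone, *Snora78* was above 0 with its host at 0 in 0 of 30 libraries at 2C and in 14 of 30 at 8C. In the 4 libraries of 4C, *Snora78* was at 0 in all and *Snhg9* above 0 in 3.

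**Figure D3:**
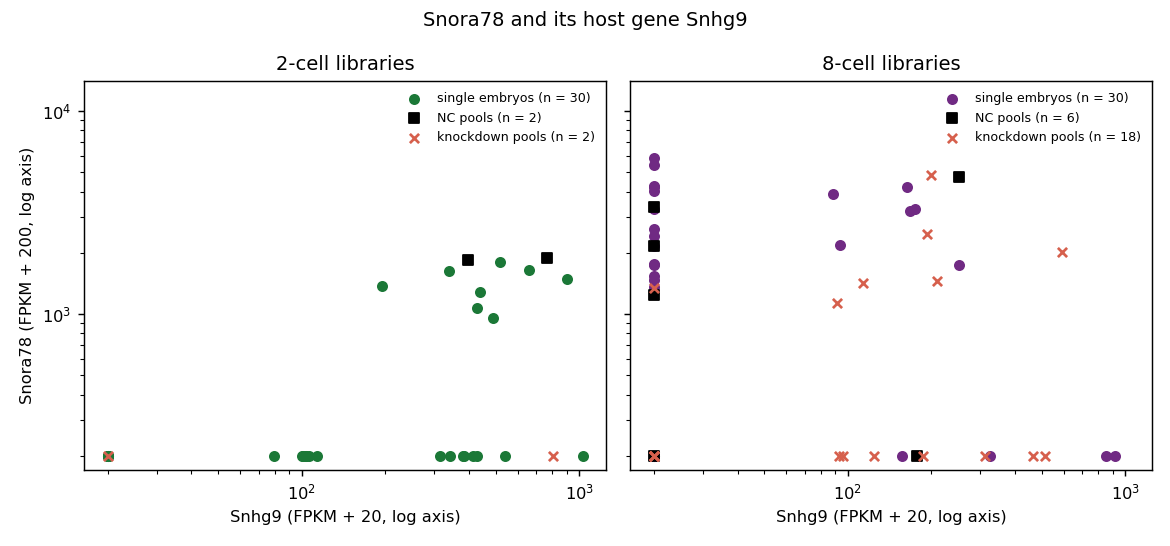
*Snora78* (vertical axis, FPKM + 200, log axis) against its host *Snhg9* (horizontal axis, FPKM + 20, log axis) in 2C (left) and 8C libraries (right), with single embryos as circles, NC pools as black squares and knockdown pools as crosses. Points on the left edge have *Snhg9* at 0 and points on the lower edge have *Snora78* at 0. At 2C no point lies on the left edge above the lower one, and at 8C 18 libraries do.

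The other hosts were above 0 in every library in which their snoRNA was. *Snx5* had a median of 194 FPKM in 8C libraries with *Snord17* and of 204 in those without it. At 2C these medians were 17.9 and 22.3. *Eif4a2* had medians of 84.1 with and 86.4 without *Snora81* at 8C, and of 36.2 and 45.9 at 2C. *Ipo7* had medians of 101 with and 107 without *Snora23* at 8C, and of 39.2 and 23.6 at 2C. *Snhg4* had medians of 9.40 with and 7.33 without *Snora74a* at 8C, and of 6.87 and 7.08 at 2C. The ranges of libraries with and without the snoRNA overlapped for each of these hosts at both stages.

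The members were spread over the libraries rather than gathered in a few. No snoRNA gene was above 0 in 19 libraries, 1 in 26, 2 in 21, 3 in 19, 4 in 6 and all 5 in 1 (8C sgRNA replicate 2). *Snora78* and *Snord17* were both above 0 in 20 libraries, which is 48.8% of the libraries with *Snora78* and 50% of those with *Snord17*. *Snora23* was found with *Snord17* in 16 libraries (64% of its own 25) and with *Snora81* in 9 (36%). The snoRNA genes made up 0 to 3.83% of a library's FPKM sum (median 0.244%). The highest share was that of 8C BE + sgRNA replicate 8, where *Snora78* was at 1538, *Snora81* at 1546 and *Snora23* at 110, and whose FPKM sum was the lowest.

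Between the stages, single control embryos (the BE and the sgRNA groups together) differed in how often *Snora78* was above 0. *Snora78* was above 0 in 5 of 16 libraries at 2C (lowest 0, median 0, highest 1594 FPKM) and in 13 of 16 at 8C (0, 1759 and 5197), and the groups overlapped. The difference was 5.83 on the log2(FPKM + 1) scale (SE 1.66, 8C minus 2C), with an adjusted p of 0.00155 in limma over 12991 genes. *Snora81* was above 0 in 3 of 16 libraries at 2C (0, 0 and 1510) and in 10 of 16 at 8C (0, 371 and 2527). Its difference of 4.06 (SE 1.42) had an adjusted p of 0.00926, close to the limit of 0.01 used for a call. Both genes were thus called higher at 8C. A call needs an adjusted p below 0.01 and a difference of 2 or more on the log2 scale, and 19.0% of all genes were called here, 8.24% as higher and 10.7% as lower. An unadjusted p under 0.05 was seen for 3 of 5 members and for 74.3% of all genes. In pools and whole embryos, fewer cells with an RNA and less RNA per cell cannot be told apart. A log2 difference between a 0 and a high FPKM depends on the added 1, so the number of libraries above 0 is the plainer measure.

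The other 3 members were not called. *Snord17* was above 0 in 6 of 16 libraries at 2C (0, 0 and 78.4 FPKM) and in 11 of 16 at 8C (0, 22.0 and 260), a difference of 1.90 (SE 0.80, adjusted p 0.0288). *Snora23* was above 0 in 2 and 5 libraries (highest 177 and 267), a difference of 1.39 (SE 1.09, adjusted p 0.247). *Snora74a* was above 0 in 4 and 3 libraries (highest 112 and 154), a difference of -0.29 (SE 0.79, adjusted p 0.751). All 5 of these genes passed the filter on low values, out of 105, and the remaining 100 could not be tested. A member can pass that filter through the stage at which it is high. The median of all genes tested shifted by -0.31 between the stages.

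The difference was also taken within the eBE and the BE4 sets, and whether it differs between the sets was not tested. In the eBE set (8 libraries at 8C and 11 at 2C, 11 of them sgRNA libraries placed by number), *Snora78* differed by 8.35 (adjusted p 0.000273), *Snora81* by 6.43 (0.000309) and *Snord17* by 2.70 (0.0173). In the BE4 set (8 at 8C and 4 at 2C), *Snora78* differed by 3.10 (0.359), *Snora81* by 0.09 (0.980) and *Snord17* by -0.25 (0.888), so no member was called there. The 2C libraries of the BE4 set were all BE embryos, whereas those of the eBE set were BE and sgRNA embryos. The 2 sets thus do not hold the same comparison. In BE embryos alone, whose column names carry eBE or BE4 (4 of each name at each stage, an alternative chosen after seeing the data), *Snora78* differed by 8.18 with eBE (adjusted p 0.00546) and by 5.61 with BE4 (0.0515), *Snora81* by 4.70 (0.0661) and 0.07 (0.984) and *Snord17* by 4.08 (0.0076) and -0.32 (0.861). With the set as a term in the fit of all control libraries the differences were 6.31, 3.87 and 1.53 (adjusted p 0.000826, 0.0177 and 0.0896), and *Snora81* was no longer called. Depth differed as well: the control libraries had a median FPKM sum of 264029 and a relative depth of 0.859 at 2C and 432036 and 1.12 at 8C. The part of set and depth in the difference was not tested further.

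The number of snoRNA genes above 0 per library counts the same genes again and is not a separate result. It was 1.25 ± 1.24 (SD, n = 16, range 0 to 4) in control embryos of 2C and 2.63 ± 1.02 (SD, n = 16, range 1 to 5) in those of 8C, with overlapping ranges. In the eBE set the means were 0.909 at 2C and 2.88 at 8C, and in the BE4 set 2 and 2.38. In BE embryos named eBE they were 0.25 and 2.5, and in those named BE4 2 and 2.75. No test is given for this number, which is a score over genes chosen with results known.

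**Figure D4:**
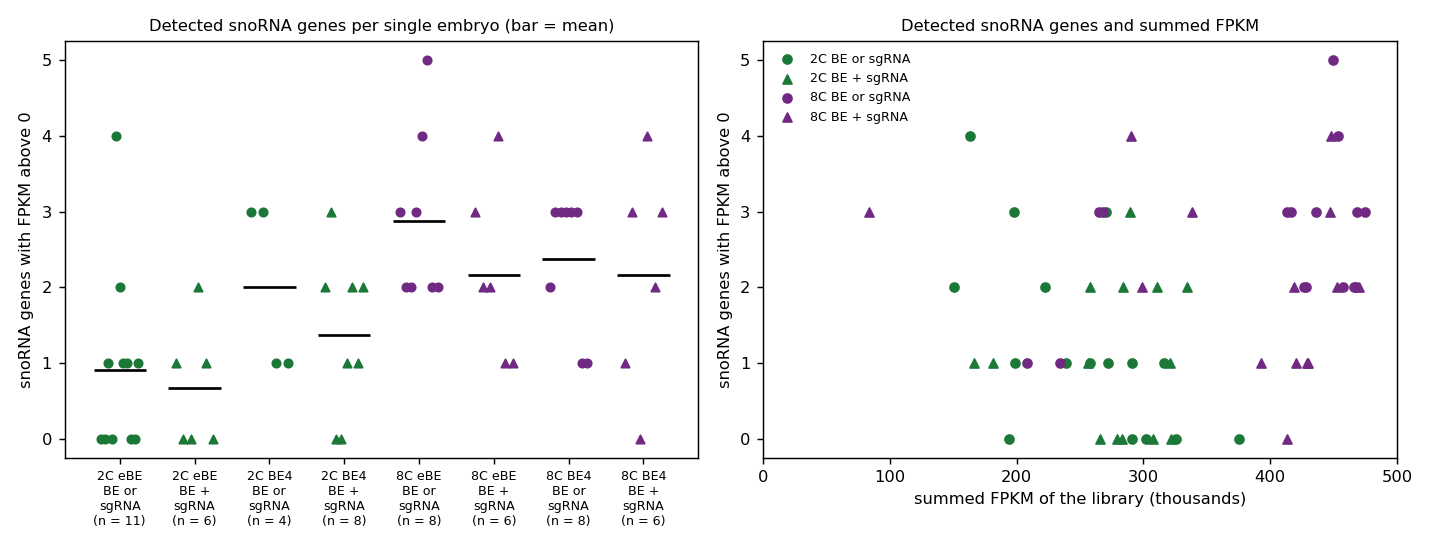
Left, number of snoRNA genes above 0 in each single-embryo library (vertical axis) by stage, eBE or BE4 set (15 sgRNA libraries placed by library number) and injection (bar, mean; the 3 libraries with a 4-cell column name are left out). Right, the same number against the library's summed FPKM (axis in units of 1000) for all 60 single embryos (green 2C, purple 8C, circles BE or sgRNA, triangles BE + sgRNA). Values of 2C and 8C overlap, and the library with 3 genes at the far left is 8C BE + sgRNA replicate 8.

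The hosts moved in their own ways between 2C and 8C. *Snhg9*, the host of *Snora78*, was above 0 in 12 of 16 control libraries at 2C (0, 306 and 1008 FPKM) and in 3 of 16 at 8C (0, 0 and 832). Its difference of -4.64 (SE 1.22, adjusted p 0.00066) had the opposite sign to that of *Snora78*. It was -5.95 in the eBE set (adjusted p 0.000289) and -2.41 in the BE4 set (0.342). *Snx5* was higher at 8C by 3.50 (SE 0.32), *Ipo7* by 2.28 (SE 0.38) and *Rps2* by 3.76 (SE 0.38), all called, and *Eif4a2* by 1.01 (SE 0.23, adjusted p 8.94e-05), below the fold limit. *Snhg4* differed by -0.47 (SE 0.40, adjusted p 0.284). Both *Rps2* and *Snora78* on its other strand were thus higher at 8C. The FPKM of *Rps2* comes from its exons, none of which overlaps *Snora78* in the annotation, so it does not measure reads at that place. Any part of *Rps2* in the values of *Snora78* was not tested.

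Genes for the proteins of snoRNA complexes were compared between the same control embryos. At an adjusted p under 0.05, 28.9% of all genes tested were higher at 8C and 72.5% differed in either direction. Of the H/ACA list, 4 of 6 genes were higher at an adjusted p under 0.05 and 0 lower (median 1.02), namely *Nhp2*, a core protein (2.33, SE 0.41, called), *Shq1*, an assembly factor (1.81), *Dkc1*, dyskerin (1.04), and *Gar1*, a core protein (0.99). Of the C/D list, 4 of 4 were higher (median 1.54), namely *Nop58* (2.18, SE 0.28, called), *Fbl*, fibrillarin (1.80), *Nop56* (1.27) and *Nhp2l1* (1.13). Of 11 genes of assembly and maturation, 6 were higher and 0 lower (median 0.97), with *Ruvbl2*, an ATPase of the R2TP complex (3.60, SE 0.39), and *Pih1d1*, its adaptor (2.06, SE 0.36), called. The median of all genes was -0.31. The call of *Nhp2* was lost with quantile normalization (1.31), that of *Nop58* with quantile normalization (1.33) and median-ratio scaling (1.88), and that of *Pih1d1* with median-ratio scaling (1.84). With median-ratio scaling the median of all genes became -0.49 and the counts of the 3 lists stayed as they were, and with quantile normalization it became 0.06 and the counts were 5 higher and 1 lower for H/ACA, 3 higher for C/D and 6 higher for assembly.

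Among 16 non-coding hosts tested of 18 listed, 4 were higher at 8C and 4 lower at an adjusted p under 0.05 in limma (median -0.16). At that limit, also used for the markers below, 28.9% of all genes tested were higher and 72.5% differed in either direction. Nothing is read from the host counts, which are near or below these shares. *Snrpn*, of the locus that holds the *Snord116* cluster, was higher by 2.21 (SE 0.62, adjusted p 0.00132), a call lost with median-ratio scaling (1.97) and quantile normalization (1.99). Also higher were *Snhg6* by 1.25, *Gas5* by 0.87 and *Snhg1* by 0.81. *Snhg9*, *Meg3* (-1.37), *Snhg11* (-0.94) and *Mirg* (-0.52) were lower. Of the snoRNA genes of these loci, *Snord47* (*Gas5*), *Snord22* (*Snhg1*) and *Snord116* (*Snrpn*) were at 0 at both stages. The stage markers behaved as their names say, with 4 of 4 2-cell genes lower and 5 of 6 later genes higher. Of the markers of other cells that could be tested, 1 of 2 of cumulus cells (*Tnfaip6*, -1.51), 2 of 2 of sperm and *Ovgp1* of the oviduct (-1.01) were lower at 8C, and their part in the differences of the snoRNA genes was not tested.

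In the 2C *Nr5a2* KD, *Snora78* was singled out for its values, which are therefore given as a description. *Snora78* was at 1630 and 1674 FPKM in the 2 NC libraries and listed at 0 in both KD libraries. No fold change can be given against a group listed at 0. *Snora78* was also at 0 in 11 of the 16 single control embryos of 2C, which had not received siRNA, and in 11 of the 14 BE + sgRNA embryos. Those are libraries of single embryos and not of pools, so the 2 kinds are not compared here. The relative depth of the pools was 0.559 and 0.747 in NC and 1.04 and 0.847 in KD, and its part was not tested. *Snhg9* was at 375 and 744 FPKM in NC and at 0 and 782 in KD, and *Rps2* at 74.5 and 55.9 in NC and at 53.7 and 25.8 in KD. Neither neighbour was thus at 0 in both KD libraries.

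The other members showed no such split at 2C. *Snora81* was at 0 and 555 FPKM in NC and at 0 and 995 in KD. *Snora23* was at 0 in both NC libraries and at 0 and 212 in KD, and *Snora74a* at 0 in both and at 0 and 56.3. *Snord17* was at 0 in all 4, and 0 of these 4 genes separated the groups. All 3 nonzero values in KD came from replicate 2, and KD replicate 1 had no snoRNA gene above 0. Across the 17352 genes above 0 in any of the 4 libraries, 110 (0.634%) were above 0 in both NC libraries and at 0 in both KD libraries, and 465 (2.68%) the other way round. *Snora78* is among the 110 by the values for which it was selected. In limma, 2 of 11958 genes (0.0167%) were called in this comparison, of which *Snora78* was 1, and 0 of the other 3 members tested were (*Snora23*, 3.87, SE 2.11, adjusted p 0.890; *Snora74a*, 2.92, SE 1.63, adjusted p 0.890; *Snora81*, 0.42, SE 3.62, adjusted p 0.985), and 0 of those 3 had an unadjusted p under 0.05 (4.67% of all genes). Nothing is read from the call of *Snora78*, and it was lost when any 1 of the 4 libraries was left out.

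Base editing of *Nr5a2* in single embryos was compared with the BE and sgRNA embryos. At 2C, *Snora78* was above 0 in 3 of 14 BE + sgRNA embryos (0, 0 and 1452 FPKM) and in 5 of 16 controls. *Snora81* was above 0 in 4 of 14 against 3 of 16, *Snora23* in 5 against 2, *Snora74a* in 2 against 4 and *Snord17* in 1 against 6. The groups overlapped for all 5 genes. The smallest p belonged to *Snord17* (-1.54, SE 0.67, unadjusted p 0.0282, adjusted p 0.388), followed by *Snora23* (1.47, SE 0.95, adjusted p 0.552) and *Snora74a* (-0.59, SE 0.79, adjusted p 0.795). In limma 0 of 5 members were called, as were 0 of 12420 genes (0%), and 1 member of 5 had an unadjusted p under 0.05, against 11.6% of all genes.

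At 8C, *Snora78* was above 0 in 7 of 14 BE + sgRNA embryos (0, 769 and 5667 FPKM) and in 13 of 16 controls. Its difference of -3.19 (SE 1.76) had an adjusted p of 0.542 and a 95% interval of -6.76 to 0.38. *Snora81* was above 0 in 5 of 14 against 10 of 16 (-2.55, SE 1.51, adjusted p 0.584), and *Snora74a* in 2 against 3 (-0.28, SE 0.78, adjusted p 0.938). *Snord17* was above 0 in 10 of 14 against 11 of 16, and *Snora23* in 5 against 5. In limma 0 of 5 members were called, as were 0 of 9760 genes (0%), and 0 members had an unadjusted p under 0.05, against 10.8% of all genes. The number of snoRNA genes above 0 was 2.07 ± 1.21 (SD, n = 14) in BE + sgRNA embryos and 2.63 ± 1.02 in controls at 8C, and 1.07 ± 0.997 (SD, n = 14) and 1.25 ± 1.24 at 2C. The effect of BE + sgRNA was not shown to differ between 8C and 2C for any member (adjusted p of the interaction of at least 0.621, the smallest being that of *Snora81*). These intervals are wide, and a p above the limit does not show that the groups act alike.

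At 4C no snoRNA gene was above 0 in either 4KD library. *Snora81* was at 354 FPKM in 1 NC library, and the other 19 values of the 5 genes in the 4 libraries (NC and 4KD) were 0. At 8C, *Snora78* was at 1955 and 4501 in NC and at 1821 and 0 in 4KD. *Snord17* was at 78.8 and 29.3 in NC and at 0 and 38.0 in 4KD. *Snora23* was at 144 and 0 in NC and at 0 in both 4KD libraries, whereas *Snora81* was at 0 in NC and at 1226 and 0 in 4KD and *Snora74a* at 0 in NC and at 73.8 and 0 in 4KD. For *Snora78* both 4KD libraries lay below both NC libraries, as they did for 16.6% of the 14239 genes above 0 in these libraries, and for the other 4 members the groups overlapped. By limma 0 of 5 members were called at 4C and 0 of 5 at 8C, as were 0 of 10476 genes (0%) in both. An unadjusted p under 0.05 was seen for 0 members at 4C (5.82% of all genes) and for 1 at 8C (7.48%), *Snora78* (-6.12, SE 2.56, adjusted p 0.628).

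Between the 4C and 8C NC pools of that experiment, *Snora78* and *Snord17* were at 0 in both libraries of 4C and above 0 in both of 8C, with the values given above, as were 154 of 14447 genes (1.07%). By limma 0 of 5 members and 0 of 10476 genes (0%) were called. An unadjusted p under 0.05 was seen for 2 members, *Snora78* (0.00137, adjusted p 0.296) and *Snord17* (0.00226, adjusted p 0.338), against 7.41% of all genes. With the 2 groups of this comparison alone in the limma fit, *Snora78* was called (adjusted p 3.10e-05). Nothing is read from that call, since the 4C values, all 0, have no spread and the gene passed the filter through 8C alone. These pools had a relative depth of 0.525 and 0.747 at 4C and of 0.398 and 0.616 at 8C, and FPKM sums of 496144 and 430977 at 4C and of 556462 and 468052 at 8C. The part of depth in the difference was not tested.

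In the 3KD experiment at 8C, *Snora78* was above 0 in 1 of 2 libraries of NC (3163 FPKM), in 1 of 2 where *Nr5a2* siRNA had been left out (1246), where *Nr1h3* siRNA had been (1144) and where *Nr2c2* siRNA had been (936), and in 0 of 2 where *Rarg* siRNA had been. *Snord17* was at 0 in both NC libraries and at 21.8 to 53.5 FPKM in 1 library of each of the 4 groups. *Snora23* was above 0 in 1 library of the pools lacking *Rarg* siRNA (357) and in 1 of those lacking *Nr2c2* siRNA (67.7). *Snora81* and *Snora74a* were at 0 in all 10 libraries. A gene that was above 0 in a group was thus never above 0 in both of its libraries. The 5 libraries numbered 1 had FPKM sums of 384329 to 439796 and the 5 numbered 2 sums of 486058 to 543248, and *Rps2* was at 209 to 358 FPKM in the former and at 558 to 877 in the latter. *Snora78* was above 0 in 3 of the libraries numbered 1 and 1 of those numbered 2, and the part of this split in the snoRNA values was not tested. By limma 0 of 3 members tested were called in each of the 4 comparisons with NC, as were 0 of 10626 genes (0%), and 0 members had an unadjusted p under 0.05. That limit was passed by 2.36% of all genes without *Nr5a2* siRNA, 6.25% without *Rarg*, 6.95% without *Nr1h3* and 7.37% without *Nr2c2* siRNA.

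In the single KD experiment at 8C, *Snora78* was at 0 and 1033 FPKM in NC, 4650 and 0 in *Nr5a2* KD, 0 and 2272 in *Rarg* KD, 0 and 0 in *Nr1h3* KD and 1219 and 0 in *Nr2c2* KD. Each KD value was either 0, as was 1 NC library, or above both NC values. *Snora81* was at 0 and 1387 in NC, 782 and 0 in *Nr5a2* KD, 648 and 762 in *Rarg* KD, 319 and 540 in *Nr1h3* KD and at 0 in both *Nr2c2* KD libraries. *Snord17* was at 27.2 and 0 in NC, 22.6 and 36.7 in *Nr5a2* KD, 0 and 21.5 in *Rarg* KD, 18.2 and 0 in *Nr1h3* KD and at 0 in both *Nr2c2* KD libraries. The groups overlapped in all of these. The nonzero values of *Snora23* lay between 69.1 and 197, and those of *Snora74a* between 45.8 and 121, in at most 1 library of a group. In *Nr5a2* KD, the comparison with the most changed genes (70 of 10163 called, 0.689%), 0 of 5 members were called by limma, and the smallest p was that of *Snord17* (2.49, SE 1.68, adjusted p 0.475), then *Snora23* (-3.35, SE 2.83, adjusted p 0.586) and *Snora74a* (-0.69, SE 2.24, adjusted p 0.911). In *Rarg*, *Nr1h3* and *Nr2c2* KD, 0 of 5 members were called, as were 0 of 10163 genes (0%), and in all 4 single KD comparisons 0 members had an unadjusted p under 0.05. Of all genes, 2.92% did in *Nr1h3* KD, 3.76% in *Rarg* KD, 4.19% in *Nr2c2* KD and 18.1% in *Nr5a2* KD. The 3KD and single KD comparisons of an experiment share their NC libraries.

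In these siRNA and base editing comparisons, 0 genes of the H/ACA, C/D, assembly and non-coding host lists passed an adjusted p under 0.05 by limma, against 0% to 2.75% of all genes. In the 4C and 8C libraries the SE of a snoRNA gene was 1.35 to 4.57 on the log2 scale with 2 libraries a group, so differences smaller than several log2 units were not detectable in the pools.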

How the data were processed

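Gene-level FPKM deposited by the authors for 92 of 113 samples were used, and 21 samples without an FPKM file were not analysed here. According to the study's methods, Smart-seq2 libraries were read from both ends, placed on mm9 by TopHat and turned into FPKM by Cufflinks for UCSC refFlat genes, each library on its own. Tests used limma 3.58.1 (R 4.3.3, trended eBayes) on log2(FPKM + 1), one fit per experiment, over genes whose mean FPKM reached 1 in any group, and p-values were adjusted over all of them (Benjamini-Hochberg). Calls needed an adjusted p below 0.01 and a log2 difference of 2 or more in size. Controls of BE + sgRNA embryos were the BE and sgRNA groups, equally weighted. Fits were also run on simulated data with normally spread log values. Those do not cover genes that are either at 0 or high, as the snoRNA genes were. Lengths, hosts and sequences were taken from the mm9 genome and GENCODE vM1 by symbol, which placed 88 of 105 members (83.8%), and the refFlat ends used by the authors may differ. FPKM carry no counts, so no counting interval is given. No 2 libraries held identical values. Members, gene lists and alternatives were chosen with earlier results of these data known. Named were *Snora78*, the members above 0 in most libraries or with the highest FPKM, called members, the 3 smallest p per comparison, their hosts, and lists of snoRNA proteins, hosts, stage and cell markers. Permutation tests (scipy 1.17.1) of the number of members above 0 were run as planned, but no p is given for a score over such members. The alternatives were other pseudocounts, filters, scalings, variance models, limits, groups in the fit, controls, eBE and BE4 sets, a replicate block and leaving out libraries. Values of 1 host gene and the sequence of 1 member are not reported here.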

Additional observations from a re-analysis of the deposited data

Results flagged for a closer look

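In groups of 8 single embryos, 23 combinations of group and measure were looked at for a sample far from the others by Dixon's criterion. The measures were the FPKM of each snoRNA gene with values above 0 and the number of snoRNA genes above 0. Of the combinations 7 stood out, all of them by an FPKM. Chance alone flags about 1 in 20 groups, but the family was picked out for its high single values. Nothing is therefore read from that comparison. The criterion assumes values with a spread, and most values in these groups were 0. *Snora81* was at 1510 FPKM in 2C sgRNA replicate 1 and at 0 in the other 7 embryos of the group. *Snora81* reached 2527 FPKM in 8C sgRNA replicate 3 against a next value of 858, and 1319 in 8C BE replicate 8 against 513. *Snora74a* was at 112 FPKM in 2C sgRNA replicate 2 against 42.1, and at 154 in 8C sgRNA replicate 2 against 0 in the others. *Snora23* was at 267 FPKM in 8C BE replicate 4 against 78.1. *Snord17* was at 260 FPKM in 8C sgRNA replicate 1 against 74.2. The 2C libraries among these had FPKM sums of 163277 and 150877, below the other sgRNA embryos of 2C, and those of 8C had sums of 413397 to 474480. The part of these sums in the values was not tested.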

How the results depend on the processing

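Across all comparisons and alternatives 934 values were recomputed, of which 858 kept direction and side of the limits. In the 13 comparisons with 0 members called, 185 of 186 alternative fits also called 0, and the other was 8C against 4C NC pools with only the groups of the comparison, which called 1. Between 8C and 2C control embryos, where 2 were called, 1 was called with pseudocounts of 0.1 and 10, no filter, eBayes without a trend, quantile normalization, median-ratio scaling, the eBE or BE4 set as a term and without libraries of a 4-cell column name, and 0 was called in the BE4 set and in BE embryos named BE4. In the 2C *Nr5a2* KD the count went from 1 to 0 (lowest 0, highest 0) when any 1 library was left out. The log2 value of *Snora78* there, which is set by the pseudocount because both KD libraries are at 0 and is no size of a change, went from -10.7 to -14.0 and -7.38 with pseudocounts of 0.1 and 10, and to -10.8 with median-ratio scaling. The difference in the number of members above 0 (8C minus 2C, 1.38) was 0.312 for *Snord* genes alone, 0.375 in the BE4 set and 0.75 in BE embryos named BE4. That of BE + sgRNA against controls turned to 0.125 for *Snora* genes alone at 2C (from -0.179) and to 0.0268 for *Snord* genes alone at 8C (from -0.554). In the BE4 set, *Snord17* turned to -0.25 between 8C and 2C (-0.316 in BE embryos named BE4), and *Snora74a* to 1.04 for BE + sgRNA at 8C. Leaving out 1 library of the pools turned the sign of 8 differences, none of them called. *Snora78* ranged from -6.49 to 5.14 in 3KD without *Nr5a2* siRNA, -6.55 to 5.08 without *Nr1h3* siRNA, -6.69 to 4.94 without *Nr2c2* siRNA and -5.01 to 6.14 in *Rarg* KD. *Snora74a* ranged from -4.16 to 2.77 in *Nr5a2* KD and -4.05 to 2.88 in *Nr2c2* KD, and *Snora81* from -0.98 to 9.46 in *Rarg* KD and -1.74 to 8.70 in *Nr1h3* KD. The causes were not tested.

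With the replicate block the counts were 1 in the 2C *Nr5a2* KD, 2 between 8C and 2C and 0 elsewhere, as without it. No label says what same-numbered libraries share beyond the number. Their deviations correlated at 0.30 to 0.54 in all 10 pairs of groups of the 3KD experiment, a hint from the data of something shared there, and at -0.04 to 0.15 in the single KD experiment, 0.005 in the 2C KD and, in the 4KD experiment, 0.37 to 0.38 within and -0.32 to -0.30 across stages. Of genes outside the family, *Snhg9* kept its call between 8C and 2C under every alternative but those within BE4, while *Nhp2*, *Nop58*, *Pih1d1* and *Snrpn* each lost theirs under at least 1 scaling. FPKM without counts limit all of these to the step sizes described above.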
